A study of Mus musculus with 6 samples.

Results

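Rpph1, the RNA subunit of RNase P, and Rmrp, the RNA subunit of RNase MRP, were examined in the RNA of extracellular vesicles (EVs) released by WEHI-231 cells. The members were chosen by their gene symbols in the GENCODE M21 annotation, and they are 2 of the 47729 genes in the count tables and 2 of the 22 genes of the ribozyme biotype. Both RNAs were detected in all 6 samples, at 39 to 242 counts for Rpph1 and 26 to 164 counts for Rmrp. Neither differed between isotype and anti-CD24 stimulated samples beyond the spread between replicates when scaled to all counts on genes. As a share of the counts outside rRNA genes both were lower in every anti-CD24 sample, with the smallest p that 3 samples against 3 allow (exact permutation p = 0.1). So were 9.26% of the 1501 genes tested, which include rRNA genes, although the denominator leaves these out. Among the 147 genes outside the rRNA biotype with a mean count of at least 20, it was 2.04% (3 genes, the members included). Rpph1 did not stay lower in every anti-CD24 sample once counts on mitochondrial genes and 45S-rDNA-like loci also left the denominator.

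RNase P and RNase MRP are related ribonucleoproteins in which an RNA is the core of the enzyme and a largely shared set of proteins is bound around it. RNase P removes the 5′ leader of precursor tRNAs, and RNase MRP cuts the first internal spacer of the precursor of ribosomal RNA, a step that helps to set the 5′ end of 5.8S rRNA. Both RNAs are made by RNA polymerase III and work mainly in the nucleus and nucleolus, and Rmrp is known for its mutation in cartilage-hair hypoplasia, a human disease with short stature and immune deficiency.

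WEHI-231 is a mouse B lymphoma line. Cells were stimulated for 1 h in vesicle-depleted medium with 10 µg/mL of either isotype control or anti-CD24 (M1/69) antibody, and both arms also received 5 µg/mL of a secondary antibody, with 3 replicates per condition. EVs were captured with the Vn96 peptide, and their RNA was sequenced on an IonTorrent PGM without fragmentation and without rRNA depletion. All isotype libraries carried barcode 1 and all anti-CD24 libraries barcode 2, so barcode and condition cannot be told apart. By the run names in the submitters' records, the isotype and anti-CD24 libraries of 1 replicate number were read in the same sequencing run, and the difference within each run is given beside the group means.

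The sequences are shown first because the members share a core motif and because close copies of 1 of them bear on how its reads were counted. Rpph1 (ENSMUSG00000092837) is a transcript of 319 bases with 67.1% GC on the minus strand of GRCm38, chr14:50807449-50807767. Rmrp (ENSMUSG00000088088) has 271 bases with 64.2% GC, also on the minus strand, chr4:43492788-43493058. In the lines that follow, the first 300 bases of Rpph1 and the whole of Rmrp are given 5′ to 3′ as DNA letters from the GENCODE M21 transcripts. Capitals mark the motif GGAANGTC, part of a conserved region of the catalytic core, and in Rpph1 also a tandem repeat.
Rpph1: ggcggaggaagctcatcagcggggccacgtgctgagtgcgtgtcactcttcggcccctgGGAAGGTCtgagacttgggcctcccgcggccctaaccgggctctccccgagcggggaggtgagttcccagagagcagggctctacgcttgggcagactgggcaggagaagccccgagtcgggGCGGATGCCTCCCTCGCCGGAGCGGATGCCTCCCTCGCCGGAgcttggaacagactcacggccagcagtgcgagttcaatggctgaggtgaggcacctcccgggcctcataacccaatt
Rmrp: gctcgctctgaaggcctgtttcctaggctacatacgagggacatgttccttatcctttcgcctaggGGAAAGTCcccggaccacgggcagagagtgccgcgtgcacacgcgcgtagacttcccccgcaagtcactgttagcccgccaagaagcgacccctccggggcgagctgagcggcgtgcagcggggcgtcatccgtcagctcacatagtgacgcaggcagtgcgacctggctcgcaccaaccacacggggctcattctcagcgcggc

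The motif occurred once in the sense strand of each RNA and not in the antisense strand. It stood at bases 60 to 67 of Rpph1, as GGAAGGTC, and at bases 67 to 74 of Rmrp, as GGAAAGTC. Of the 12328 transcripts of 200 to 400 bases in the annotation, 2.53% held these letters in the sense strand and 2.43% in the antisense strand, and 7 of the 22 ribozyme transcripts did. Over the whole of both members, the motif included, a global alignment gave 51.9% identity, and the longest run of shared bases was 9. The repeat of Rpph1 is a unit of 21 bases that stood at bases 182 to 202 and again, without a change, at bases 203 to 223.

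Reads of Rpph1 can be shared with other annotated genes more easily than reads of Rmrp. Rprl1, Rprl2 and Rprl3, the annotated copies of the RNase P RNA, aligned to bases 1 to 257 of Rpph1. Each alignment lacked 21 bases, placed at bases 182 to 202, so that the copies aligned to 1 unit of the repeat. The units are identical, so which of them is missing cannot be told. Over the aligned bases, identity to Rpph1 was 93.6% for Rprl3, 93.2% for Rprl2 and 91.1% for Rprl1. No other annotated gene was a near copy of Rmrp, apart from a second annotation entry at the same locus that is not among the genes of the count tables.

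Other genes also lie over both loci. An exon of Ccnb1ip1, on the same strand, covered bases 36 to 268 of Rpph1, or 73.0% of it, in GENCODE M21. The authors' counting sets aside a read that touches exons of several genes, so reads there would not have been counted if their annotation held this exon, which is not known. Between 2743 and 21834 reads per sample were set aside as ambiguous over the whole table, and Ccnb1ip1 itself had 0 counts in all 6 samples. Rmrp was overlapped at bases 36 to 159 by an exon of Ccdc107 on the opposite strand, which stranded counting keeps apart, and Ccdc107 had 0 counts. Parp2 and Arhgef39, the other annotated genes within 5 kb of the members, were also at 0 counts in every sample.

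**Figure D1:**
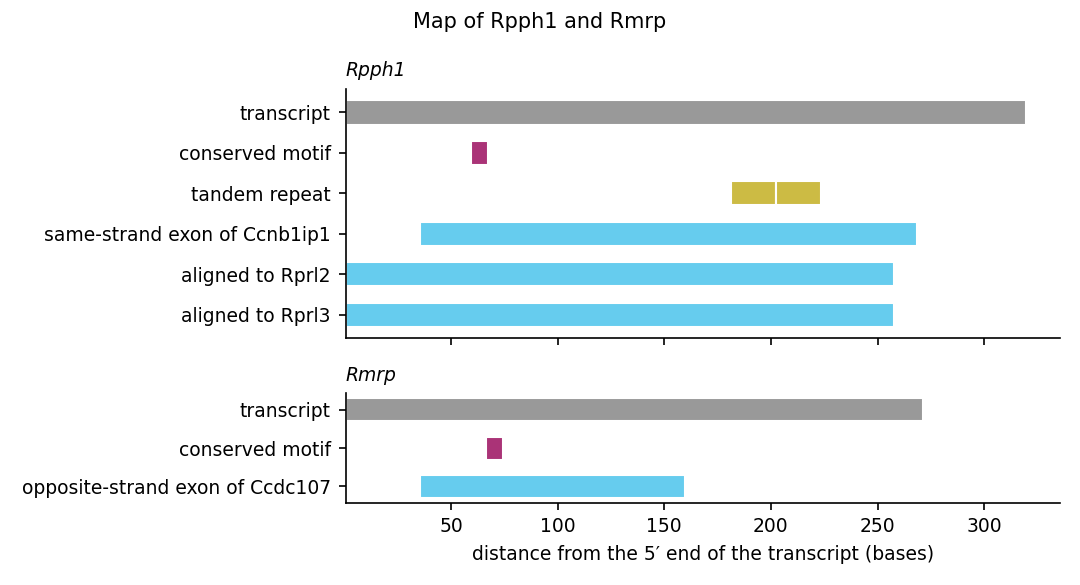
Map of Rpph1 (319 bases) and Rmrp (271 bases) along the distance from the 5′ end in bases. Bars show the conserved motif, the tandem repeat, exons of other genes and the stretch aligned to Rprl2 and Rprl3, which ends at base 257 of Rpph1.

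The libraries held 166129 to 794185 counts on genes (medians of 322397 for isotype and 736432 for anti-CD24), and rRNA genes (those of the rRNA biotype, which the ribozyme biotype is not part of) took 84.7% to 91.3% of them. Outside rRNA genes 15692 to 112464 counts were left. Counts of cell type markers were few, with 5 counts of Cd79b and 23 of Ighm, both of B cells, over the 6 samples, 33 of the fibroblast marker Col1a1, 8 over 3 myeloid markers, and none over 4 T cell markers. Anti-CD24 replicate 1 alone held haemoglobin RNA, with 99 counts against 0 in every other sample. Its part in the results was not tested, and the values without this library are given where it matters.

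Rpph1 levels were alike in the isotype samples and spread widely in the anti-CD24 samples. Isotype replicates 1, 2 and 3 had 62, 39 and 150 counts of Rpph1, or 192, 235 and 196 CPM (the count scaled to a common total of counts on genes). Anti-CD24 replicates 1, 2 and 3 had 70, 242 and 102 counts, or 115, 329 and 128 CPM. Anti-CD24 replicate 2 was thus the highest of all samples, the other two anti-CD24 samples were the lowest, and the groups overlapped. The mean was 208 ± 23.4 CPM in isotype and 191 ± 120 CPM in anti-CD24 samples (SD, n = 3 each), a difference of -17.2 CPM (two-sided exact permutation test, p = 1). On this scale 6.53% of the 1501 genes that were tested across the table were lower in every anti-CD24 sample, 5.73% were higher in every one, and 57.2% had a lower mean. Within the runs, anti-CD24 minus isotype was -77.6, 93.9 and -68.0 CPM for replicates 1, 2 and 3, so the sign was not the same in all runs.

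Rmrp showed the same lack of separation, with another library at the top. Isotype replicates 1, 2 and 3 had 45, 26 and 164 counts of Rmrp, or 140, 157 and 215 CPM. Anti-CD24 replicates 1, 2 and 3 had 88, 133 and 66 counts, or 144, 181 and 83.1 CPM. Isotype replicate 3 was the highest and anti-CD24 replicate 3 the lowest, and the remaining samples lay between them without order by condition. The mean was 170 ± 39.4 CPM in isotype and 136 ± 49.3 CPM in anti-CD24 samples (SD, n = 3 each), a difference of -34.3 CPM (two-sided exact permutation test, p = 0.5). Within the runs the difference was 4.62, 24.1 and -132 CPM, and replicate 3 alone carried the lower mean. With 3 samples against 3, the smallest p this test can give is 0.1.

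**Figure D2:**
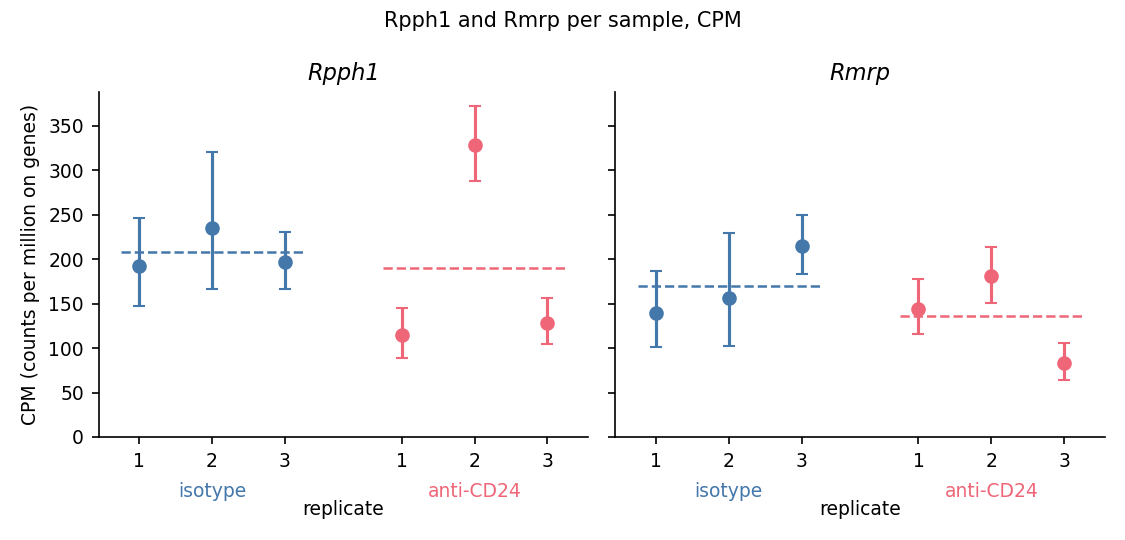
CPM of Rpph1 and Rmrp in each sample, with exact Poisson 95% intervals that cover counting error only, and the group mean as a dashed line. The anti-CD24 samples of Rpph1 run from 115 to 329 CPM, around the isotype samples at 192 to 235 CPM.

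The fit over all genes gave the same picture for both RNAs. With edgeR's quasi-likelihood test on the 1501 genes with at least 1.0 CPM in 3 or more samples, neither member had an adjusted p under 0.05, where 0.0666% of the genes tested did (1 gene, Zfp260), and neither had an unadjusted p under 0.05, where 7.99% did. With the replicate number as a block, which pairs the libraries by run, 0 genes passed, and the log2 fold change was -0.034 for Rpph1 and -0.12 for Rmrp (adjusted p = 0.99 for each). The log2 fold change of Rpph1, anti-CD24 over isotype, was 0.05 (SE 0.79, 95% interval -1.49 to 1.60, Benjamini-Hochberg adjusted p = 0.97). For Rmrp it was -0.21 (SE 0.80, 95% interval -1.78 to 1.37, adjusted p = 0.93). The intervals span a lower as well as a higher level for each RNA. The median log2 fold change of all genes tested was -0.29, so Rpph1 lay 0.34 and Rmrp 0.08 above it. The sign was not settled: with DESeq2 the log2 fold changes were -0.61 for Rpph1 and -0.84 for Rmrp against a median of -0.97, and with rRNA genes removed before normalization they were 0.54 and 0.23 against -0.05.

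Read as a share of the counts outside rRNA genes, both RNAs were lower in every anti-CD24 sample than in any isotype sample. Rpph1 made up 0.222%, 0.249% and 0.217% of these counts in isotype replicates 1, 2 and 3, and 0.108%, 0.215% and 0.125% in anti-CD24 replicates 1, 2 and 3. The lowest isotype and the highest anti-CD24 value of Rpph1 were nearly equal, so the separation is narrow. Rmrp made up 0.161%, 0.166% and 0.237% in the isotype samples, and 0.136%, 0.118% and 0.0809% in the anti-CD24 samples. For Rmrp the closest values were those of replicate 1 of each condition, and their counting intervals overlapped. The mean share of Rpph1 was 0.229% ± 0.0171 in isotype and 0.149% ± 0.0576 in anti-CD24 samples, and that of Rmrp 0.188% ± 0.0424 and 0.112% ± 0.0281 (SD, n = 3 each). The exact permutation test gave p = 0.1 for each, two-sided, which is the smallest it can give and does not pass 0.05.

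Since the groups did not overlap on this scale, the share was necessarily lower within each sequencing run too. The exact sign-flip test over the runs gave p = 0.25 for each RNA, the smallest it can give. Anti-CD24 minus isotype was -0.114, -0.0334 and -0.0915 percentage points for Rpph1 in replicates 1, 2 and 3, and -0.0254, -0.0474 and -0.156 for Rmrp. Without anti-CD24 replicate 1, the library with haemoglobin RNA, the mean differences were -0.0590 points for Rpph1 and -0.0883 for Rmrp. Among the 1501 genes tested, 9.26% were lower on this scale in every anti-CD24 sample and 4.06% higher, and 64.2% had a lower mean. The genes tested include rRNA genes, whose counts the denominator leaves out. Among the 147 genes outside the rRNA biotype with a mean count of at least 20, 3 were lower in every anti-CD24 sample (2.04%), namely Rpph1, Rmrp and the vault RNA Vaultrc5. Rn7sk, which fell under that cut with 103 counts in all, was also lower in every anti-CD24 sample (means of 0.0465% in isotype and 0.0184% in anti-CD24 samples). The structured RNAs Rny1, Rny3, Rn7s1 and Rn7s2 overlapped between the conditions.

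The denominator of this share also differed between all samples of the conditions. Counts outside rRNA genes were 8.66%, 9.45% and 9.07% of all counts in isotype replicates 1, 2 and 3, and 10.6%, 15.3% and 10.3% in anti-CD24 replicates 1, 2 and 3. The anti-CD24 samples were all higher (12.1% ± 2.79 against 9.06% ± 0.393, SD, n = 3 each, exact permutation p = 0.1), and the part of this in the lower shares of the members cannot be told apart from a change of the members themselves. Counts on the mitochondrial genome and on Gm42418, Gm26917 and Lars2, grouped here as 45S-rDNA-like loci, were next also left out of the denominator. Rpph1 was then 0.580% ± 0.108 in isotype and 0.358% ± 0.175 in anti-CD24 samples, and the groups overlapped (exact permutation p = 0.2). On that scale Rmrp was 0.483% ± 0.175 and 0.251% ± 0.0355 and did not overlap (exact permutation p = 0.1). Of the genes tested, rRNA genes again included, 10.6% were then lower in every anti-CD24 sample. In bulk EV RNA, fewer vesicles that hold an RNA and fewer copies per vesicle cannot be told apart.

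**Figure D3:**
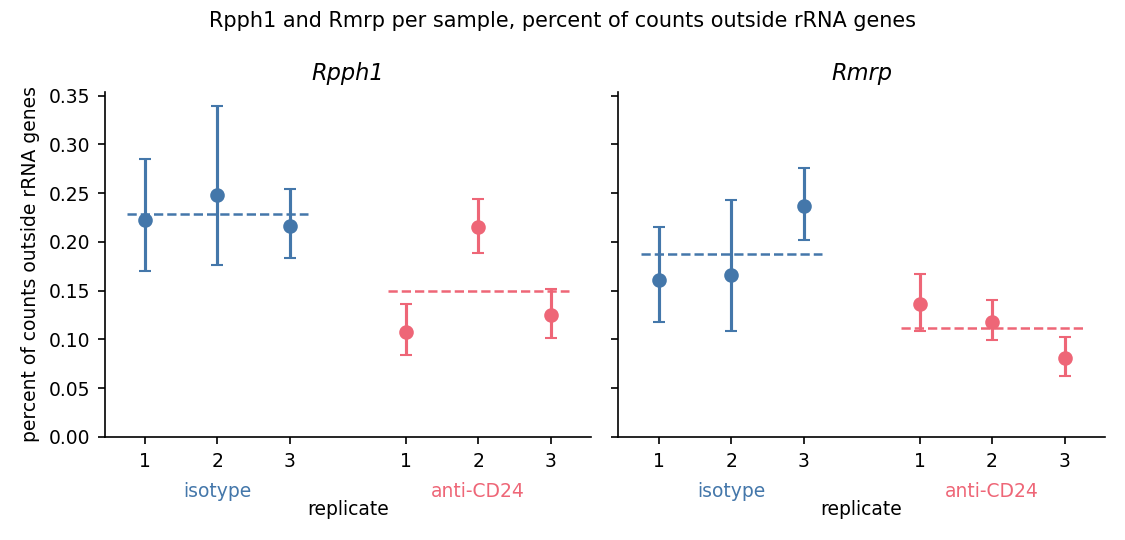
Rpph1 and Rmrp as percent of the counts outside rRNA genes in each sample, with exact Poisson 95% intervals that cover counting error only, and group means as dashed lines. Every anti-CD24 sample lies below every isotype sample, by a narrow margin for Rpph1 (0.217% against 0.215%).

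The ratio of the RNAs to each other needs no scaling of the libraries, since both are counted in the same sample. Rmrp took 42.1%, 40.0% and 52.2% of the counts of both RNAs in isotype replicates 1, 2 and 3. It took 55.7%, 35.5% and 39.3% in anti-CD24 replicates 1, 2 and 3, so that the anti-CD24 samples held both the highest and the lowest share. The exact Clopper-Pearson 95% interval ran from 47.6% to 63.6% in anti-CD24 replicate 1 and from 30.6% to 40.5% in anti-CD24 replicate 2, and these intervals, which treat reads as independent, did not overlap. The mean was 44.8% ± 6.55 in isotype and 43.5% ± 10.7 in anti-CD24 samples (SD, n = 3 each), a difference of -1.28 percentage points (two-sided exact permutation test, p = 0.8). Within the runs the difference was 13.6, -4.53 and -12.9 points. Per kilobase of transcript, the ratio of Rmrp to Rpph1 was 0.969 ± 0.333 (SD, n = 6) and ran from 0.647 to 1.48.

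**Figure D4:**
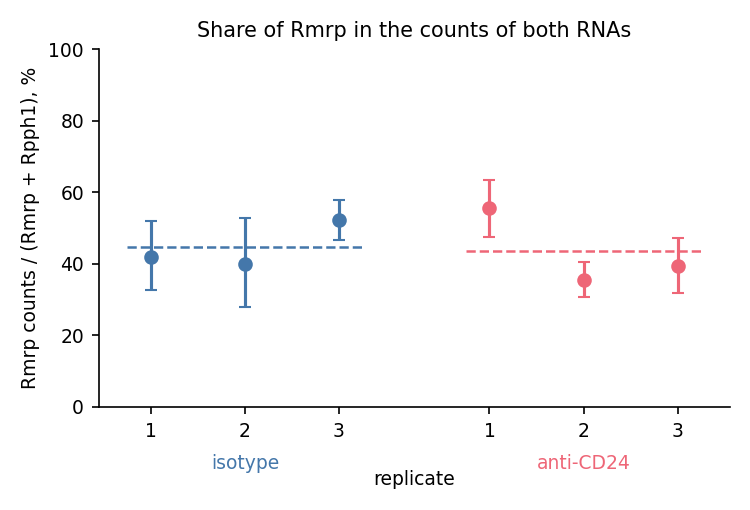
Rmrp counts as percent of the Rmrp and Rpph1 counts together in each sample, with exact Clopper-Pearson 95% intervals that cover counting error only, and group means as dashed lines. Anti-CD24 replicate 1 at 55.7% and anti-CD24 replicate 2 at 35.5% are the extremes of all 6 samples.

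Across the 6 samples the levels of the RNAs were not closely tied to each other. On log2(CPM + 1), Pearson's r was 0.59 (permutation p = 0.21, exact) and Spearman's rho 0.66 (permutation p = 0.18, exact), and without the 2 samples farthest from the median of Rpph1 r was 0.80. On the share of counts outside rRNA genes r was 0.58 and rho 0.66 (exact permutation p = 0.27 and 0.18), and without the 2 farthest samples r was 0.03. These were 2 relations, the adjusted p was 0.27 for r and 0.18 for rho on each scale, and the points share the same libraries.

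Both RNAs were among the more abundant RNAs of the EVs outside rRNA. By counts among all genes outside the rRNA biotype, Rpph1 ranked between 38 and 99 and Rmrp between 35 and 80 in the 6 samples. Their sum was 0.0212% to 0.0509% of all counts on genes. Per kilobase of transcript, Rpph1 had 624 ± 244 CPM and Rmrp 565 ± 163 CPM (SD, n = 6). The Y RNAs, which bind the Ro60 protein, had higher means, with 2265 ± 1743 CPM per kilobase for Rny3 and 1042 ± 737 for Rny1. The libraries were not fragmented, and without the division by length Rny1 had 117 CPM, below both members. In isotype replicate 3 Rny1 was below both members per kilobase too, at 316 against 616 for Rpph1 and 792 for Rmrp. The 7SL RNA of the signal recognition particle, counted as Rn7s2, had 733 ± 245 CPM per kilobase, and its near-identical copy Rn7s1 had nearly the same counts, so that reads of the pair cannot be told apart.

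Below the members stood Vaultrc5, the RNA of vault particles, with 528 ± 170 CPM per kilobase, and then the small nucleolar RNAs Snord13 and Snord118, with 428 ± 391 and 412 ± 324. Rn7sk, the 7SK RNA that holds back a transcription elongation factor, was the lowest of the 9 RNAs compared here, at 98.0 ± 44.9. Per kilobase, the neighbours in this order did not differ from the members beyond their spread. Rn7s2 was above Rpph1 in 4 of 6 samples, Rpph1 above Rmrp in 4 of 6 and Rmrp above Vaultrc5 in 5 of 6 (exact sign-flip permutation test over 6 samples, p = 0.59, 0.53 and 0.59). Without the division by length Rmrp was above Vaultrc5 in every sample, with means of 153 ± 44.1 and 75.5 ± 24.3 CPM (SD, n = 6). Rn7s2 and Rpph1 then had 220 ± 73.4 and 199 ± 77.7 CPM. Terc, the RNA of telomerase, had 0 counts in all samples.

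**Figure D5:**
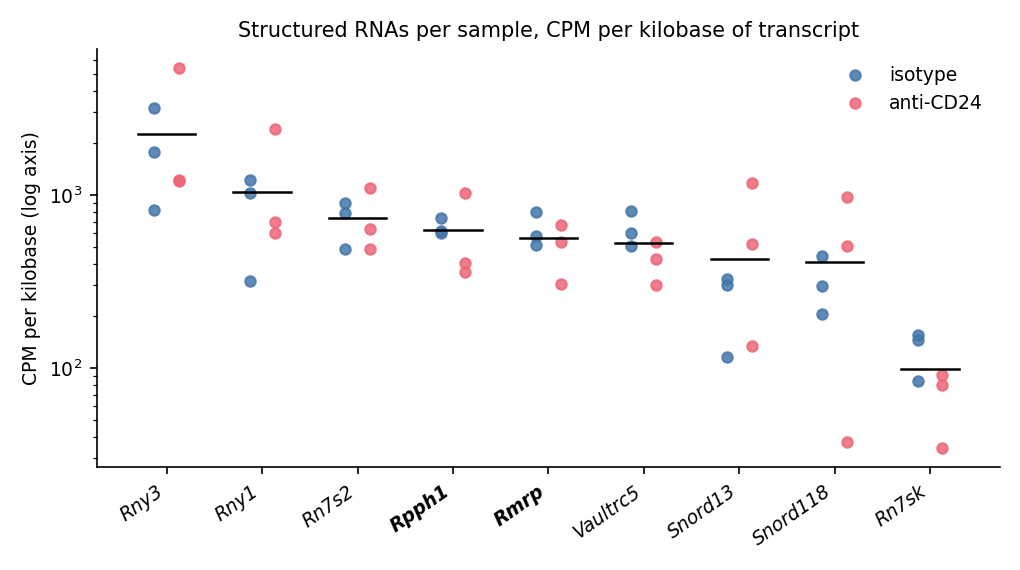
CPM per kilobase of transcript on a log axis for Rpph1, Rmrp and other structured RNAs, with 1 point per sample and the mean of the 6 samples as a black line. Rpph1 and Rmrp, at means of 624 and 565, lie next to Rn7s2 and Vaultrc5, while Rn7sk, at 98.0, lies below.

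The copies of the RNase P RNA were counted at a much lower level than Rpph1. Rprl2 had 7, 0 and 9 counts in isotype replicates 1, 2 and 3 and 5, 23 and 6 in anti-CD24 replicates 1, 2 and 3. Rprl3 had 13, 0 and 14 counts in the isotype and 5, 23 and 14 in the anti-CD24 samples, and Rprl1 had none. As counts both were highest in anti-CD24 replicate 2. That library, with 736432 counts on genes, was deeper than replicate 1 of both conditions and isotype replicate 2. It was less deep than isotype replicate 3 (763737) and anti-CD24 replicate 3 (794185). Together Rprl2 and Rprl3 took 24.4%, 0% and 13.3% of the counts of Rpph1, Rprl2 and Rprl3 in isotype replicates 1, 2 and 3, replicate 2 being 0 of 39, which allows up to 9.03% by the exact Clopper-Pearson interval. In anti-CD24 replicates 1, 2 and 3 they took 12.5%, 15.97% and 16.4%, and the means of the conditions differed by less than the spread (12.6% ± 12.2 against 15.0% ± 2.14, SD, n = 3 each, exact permutation p = 0.8). With their counts added, the mean level of Rpph1 over the 6 samples was 232 CPM in place of 199 ± 77.7. How the authors' alignment assigned reads among Rpph1 and these copies is not known. A read counted for more than 1 of these genes would enter the sum and the percents more than once. The values of all 3 genes are uncertain to that extent.

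Of the 22 genes of the ribozyme biotype, 6 had any count, and 4 were tested: Rpph1, Rmrp, Rprl2 and Rprl3. None of them had an adjusted p under 0.05 in edgeR's test. The log2 fold change was 0.37 (SE 1.12) for Rprl2 and 0.10 (SE 1.06) for Rprl3. Gm24943 and Gm22902 had 1 count each, and the other 16 had none.

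The mRNAs of the proteins of the enzymes were rarely counted, as were many other mRNAs. Of 11 genes for proteins of RNase P and RNase MRP (Pop1, Pop4, Pop5, Pop7, Rpp14, Rpp21, Rpp25, Rpp25l, Rpp30, Rpp38 and Rpp40), 2 had a count, with 7 counts in all, and none entered the test. Over the table, 20.3% of the 47729 genes and 33.4% of the 21697 protein-coding genes had a count. Rpp14, a subunit of RNase P, had 1 count in isotype replicate 3 and 2 in anti-CD24 replicate 1, and Rpp25l, a relative of the subunit Rpp25, had 3 and 1 in the same samples. The least that 3 counts can show was 3.78 to 18.1 CPM in a sample, so lower levels were not detectable at this depth. Of the other enzymes of tRNA end maturation 2 were counted, namely Hsd17b10, of the protein-only mitochondrial RNase P, and Elac1, a tRNA 3′ end nuclease, with 2 counts each in 1 sample.

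On a list of other small RNAs tied to rRNA maturation, few entries were counted and none passed the test. The list of 20 genes holds the U3, U8, U13, U14, U17 and U22 RNAs, and the 5.8S entry n-R5-8s1, which is a product of the cleavage. Of these genes 5 had a count, 4 were tested and 0 had an adjusted p under 0.05 (lowest adjusted p = 0.62, edgeR). The median log2 fold change of the 4, the 5.8S product included, was 0.84, beside -0.29 over all genes tested. The values ran from -0.03 for n-R5-8s1 to 1.18 for Snord13. Snord118, the U8 RNA, had 13, 10 and 21 counts in isotype replicates 1, 2 and 3 and 42, 97 and 4 in anti-CD24 replicates 1, 2 and 3, so the anti-CD24 samples were both the highest and the lowest. Snord13, the U13 RNA, had 11, 2 and 24 counts and 74, 40 and 11 counts in the same order. The U3, U14 and U22 entries had 0 counts in every sample. Each U3 symbol has a second entry of like length, and whether these entries overlap was not examined. If they do, their reads would have been set aside as ambiguous, so 0 counts need not mean that U3 was absent. Of the 7 other structured RNAs in the tables, 6 were tested and 0 passed (median log2 fold change 0.24, lowest adjusted p = 0.72).

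The genes whose levels followed each member most closely were found by Pearson's r of log2(CPM + 1) over the 6 samples, among genes outside the rRNA biotype with a mean count of at least 20, and are given as a description. For Rpph1 they were Gm42427 (r = 0.93), Fcgr3 (0.92), mt-Tp (0.90), Gm25813 (0.88) and mt-Rnr1 (0.88). Fcgr3, an Fc receptor gene, had 850, 855 and 394 CPM in isotype replicates 1, 2 and 3 and 249, 1384 and 203 CPM in anti-CD24 replicates 1, 2 and 3, highest in the same library as Rpph1. For Rmrp they were Gm10800 (r = 0.90), mt-Rnr2 (0.80), Snord118 (0.71), Gm11168 (0.70) and Rnu1a1 (0.70). The lists had no gene in common, and all values rest on the same 6 libraries, which share depth and composition.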

How the data were processed

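RNA-seq of WEHI-231 EVs was analysed in all 6 samples, grouped by the condition in their labels. The authors quality-trimmed the reads (FASTX), mapped them by tmap, ran htseq-count (HTSeq 0.5.4p5, union mode, stranded, exons by gene) against Ensembl GRCm38 and deposited raw counts per gene. The submitters' processing notes name GRCm38.p4 and the study's methods another patch of the same build. The 5 summary lines of each table were left out of library sizes. Symbols, positions and sequences came from GENCODE M21 for GRCm38, where 419 of the 47729 genes were not listed.

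The test across genes used edgeR 4.0.16 under R 4.3.3 (TMM, quasi-likelihood, at least 1.0 CPM in 3 or more samples, Benjamini-Hochberg over the 1501 genes tested, threshold 0.05), after the script was tested on simulated data. The SE is the absolute log2 fold change divided by the root of F. Single values were compared by exact permutation tests of 3 samples against 3 (smallest p 0.1). Copies were searched with BLAST+ 2.17.0 (at least 80% identity over 200 bases) and aligned with Biopython 1.88. Intervals cover counting error only, at 95%, and PCR copies are not independent molecules. Other steps used Python 3.11.15, numpy 2.4.6, pandas 2.3.3 and scipy 1.17.1, and DESeq2 1.42.0 was an alternative.

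The members and lists were chosen with earlier results of these data known. Named genes are the members, listed genes with at least 3 counts in all, and the 5 genes most like each member. Run names in the submitters' records tie same-numbered samples to 1 sequencing run. Their deviations from the group means did not go together (r = -0.03, -0.02 and -0.11 for replicates 1, 2 and 3), and the fit reported has no block, with the blocked fit as an alternative. The labels call the samples replicates, and p-values measure the spread between them.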

Additional observations from a re-analysis of the deposited data

How the results depend on the processing

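Neither member had an adjusted p under 0.05 under any of the 14 alternatives to the edgeR fit, but their sign was not stable. The log2 fold change of Rpph1, 0.05 in the fit reported, was -0.61 with DESeq2, -0.12 with library size without TMM, -1.03 with at least 10 counts in every sample and -0.19 with genes of identical counts kept once, and ran from -0.58 to 0.65 with each sample left out. That of Rmrp, -0.21, was 0.23 with rRNA genes removed before normalization and ran from -0.75 to 0.084 with each sample left out. The median of all genes tested moved with the scaling too, from -0.97 with DESeq2 to 0.01 with at least 10 counts in every sample, where Rpph1 lay at -1.04 and Rmrp at -1.11 relative to it, and the cause was not tested. The number of genes past adjusted p 0.05, 1 in the fit reported with 120 at an unadjusted p under 0.05, was 0 with DESeq2 (95 unadjusted), 2 of 9700 without a filter and 0 of 134 with at least 10 counts in every sample (3 unadjusted). It ran from 0 to 48 with each sample left out: 48 without anti-CD24 replicate 1, 3 without anti-CD24 replicate 3, and 0 without isotype replicate 1 or anti-CD24 replicate 2 (56 and 102 unadjusted).

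The difference of Rpph1 in CPM, -17.2, was 7.38 on TMM-scaled CPM and ran from -86.3 (without anti-CD24 replicate 2) to 20.7 (without anti-CD24 replicate 1) with each sample left out, being 13.8 without anti-CD24 replicate 3, and that of Rmrp ran from -56.6 to -7.87. The difference in the Rmrp share ran from -7.39 (without anti-CD24 replicate 1) to 2.73 percentage points (without anti-CD24 replicate 2). For the share of counts outside rRNA genes, alternatives were added after seeing the data. With each sample left out the difference ran from -0.113 to -0.0590 points for Rpph1 and from -0.0895 to -0.0518 for Rmrp. Its sign could not change there, since the groups did not overlap. With 5 abundant snoRNA genes also left out of the denominator, the differences were -0.0788 for Rpph1 and -0.0744 for Rmrp. With the replicate number as a block, 0 genes passed (20 unadjusted), and the log2 fold change was -0.034 for Rpph1 and -0.12 for Rmrp. The block changed the call of no member. Depth limits the members to 26 to 242 counts per sample.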
